A study of Mus musculus with 4 samples.

Results

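The NRF2 pathway is represented here by 10 genes, chosen by name: the transcription factor Nfe2l2 (NRF2), its inhibitor Keap1, and the target genes Gclc, Gclm, Gsr, Txnrd1, Prdx1, Srxn1, Nqo1 and Hmox1. They were read by 16 of the 56605 probes on the array and make up 10 of 25106 named genes. The cells were macrophages grown for 5 days from bone marrow of male C57BL/6J mice with 3 ng/ml M-CSF, the growth factor that drives macrophage differentiation. Wild-type cells and cells from Batf2-/- mice, which lack the AP-1 family factor Batf2, were either left untreated or given 100 ng/ml R848, an agonist of the endosomal receptor TLR7, and the treated cells were collected at 8 h. Each of the 4 groups had 1 array, so no difference below has a replicate check, none comes with a p-value, and precision is limited by there being 1 array a group. The labels of the untreated cells give 0 h, and no array is labelled as untreated at 8 h. How far 8 h of culture alone adds to the differences with R848 was not tested. The sources used here give neither the age of the mice nor whether marrow was pooled.

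In resting cells KEAP1 holds NRF2 in a complex with a CUL3 ubiquitin ligase that sends it for degradation. Oxidants and electrophiles modify cysteines of KEAP1, NRF2 then accumulates, pairs with small MAF proteins and binds antioxidant response elements in its target genes, a step that BACH1 opposes. The targets supply glutathione, thioredoxin and NADPH, repair oxidised peroxiredoxins, reduce quinones and break down haem. In macrophages the pathway is known to limit inflammatory signalling, and the metabolite itaconate can modify KEAP1.

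Across the arrays 60.6% to 71.4% of probes were well above background, and no spot was saturated. The 16 probes of the pathway were all well above background on all 4 arrays, and none lay in a marked bright area of an array. All 8 macrophage markers were measured on every array, with a summed level of 636 to 808. That of 8 basophil and mast cell markers was 21.3 and 10.1 on the wild-type arrays and 1.69 and 0.828 on the knockout arrays (untreated, then R848), with 8 and 7 of them measured on the wild-type arrays and 7 and 3 on the knockout arrays. For 7 granulocyte precursor markers the sums were 472 and 361 in wild-type and 237 and 228 in knockout cells, and all 7 were measured on each array. S100a9 made up much of these sums, with 286 in untreated wild-type cells. In untreated cells 6 of the 7 were at least 2-fold lower in the knockout (3.18% of all genes were), with a median log2 difference of -3.01. With R848, 5 of the 7 fell at least 2-fold in wild-type and 3 in knockout cells (7.01% and 6.57% of all genes). The part of these cell types in the differences below, with R848 or between genotypes, was not tested. Fewer cells of a type cannot be told apart from less RNA per cell in such bulk samples. The lymphocyte marker Cd3g and the fibroblast marker Lum were not well above background on any array. Batf2 itself, read by 1 probe, had a relative signal of 0.123 and 0.357 in wild-type cells (untreated, then R848) and 0.102 and 0.0428 in knockout cells, where the last was not well above background. Whether that probe reads the part of Batf2 that was deleted is not stated, so it checks the labels only in part.

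Of the 10 members, the promoters of 5 are shown, those that match an element bound by NRF2 or by AP-1 factors. Whether these elements have a part in the differences with R848 was not tested. The RefSeq table of assembly GRCm38.p6 held promoters for 7 of the 10 members. The 250 bases before each start were searched on both strands for the antioxidant response element TGACNNNGC and the AP-1 element TGANTCA, which can overlap. The windows are chr4:116685349-116685598 for Prdx1, chr10:82858956-82859205 for Txnrd1, chr3:122245307-122245556 for Gclm and chr2:152105274-152105523 for Srxn1, on the plus strand, and chr2:75704664-75704913 for Nfe2l2, on the minus strand. Each is written in the direction of its gene, and capitals mark the matches.
Prdx1: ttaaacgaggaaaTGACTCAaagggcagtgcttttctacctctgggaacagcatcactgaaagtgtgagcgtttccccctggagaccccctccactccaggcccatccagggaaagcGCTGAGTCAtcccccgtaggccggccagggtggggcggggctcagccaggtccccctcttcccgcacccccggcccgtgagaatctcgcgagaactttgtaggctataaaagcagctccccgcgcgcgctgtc
Txnrd1: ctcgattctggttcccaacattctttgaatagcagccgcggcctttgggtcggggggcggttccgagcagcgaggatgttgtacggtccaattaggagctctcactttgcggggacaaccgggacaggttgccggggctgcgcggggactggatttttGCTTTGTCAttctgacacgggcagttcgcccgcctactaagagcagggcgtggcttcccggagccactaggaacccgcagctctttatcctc
Gclm: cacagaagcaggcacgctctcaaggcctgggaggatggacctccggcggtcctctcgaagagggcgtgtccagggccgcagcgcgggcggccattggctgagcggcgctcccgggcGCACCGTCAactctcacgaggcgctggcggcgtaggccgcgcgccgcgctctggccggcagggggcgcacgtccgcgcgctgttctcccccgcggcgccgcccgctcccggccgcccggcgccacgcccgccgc
Nfe2l2: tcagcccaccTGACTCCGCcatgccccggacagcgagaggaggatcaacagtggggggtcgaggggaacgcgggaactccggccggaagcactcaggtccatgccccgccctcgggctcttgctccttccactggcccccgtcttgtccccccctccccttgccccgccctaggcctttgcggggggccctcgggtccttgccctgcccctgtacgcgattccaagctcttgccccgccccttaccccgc
Srxn1: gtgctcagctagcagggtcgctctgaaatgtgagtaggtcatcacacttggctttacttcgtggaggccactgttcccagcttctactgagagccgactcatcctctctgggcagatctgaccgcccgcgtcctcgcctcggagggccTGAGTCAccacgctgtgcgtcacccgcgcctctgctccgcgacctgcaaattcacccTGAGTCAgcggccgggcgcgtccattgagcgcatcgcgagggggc

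The antioxidant response element was matched in 4 of the 7 members with a promoter (Nfe2l2, Gclm, Prdx1 and Txnrd1), and in 11.5% of all 27025 genes in the table. Of 78 further genes of the pathway with a promoter, 13 (16.7%) had a match. With positions counted back from the start, the matches lie at -240 in Nfe2l2, -134 in Gclm, -133 in Prdx1 and -92 in 1 of the 3 listed promoters of Txnrd1. The Prdx1 match, TGACTCAGC read against the direction of the gene, contains the AP-1 element TGACTCA. The AP-1 element was matched in 2 of the 7 members, Prdx1 and Srxn1, in 6 of the 78 further pathway genes (7.69%), and in 7.82% of all genes. In Srxn1 the AP-1 element stands at -102 and -45, and the string TGACNNNGC was not matched in its window. The AP-1 match at -45 is followed by GC, and TGAGTCAGC differs from the searched string only at base 4. Exact strings for NF-kB, searched as well, were matched in none of the 7. They were also matched in 0 of the 78 further pathway genes, and in only 0.159% and 0.104% of all genes. Strings this rare would be missed in almost any set of 7, so their absence says nothing about NF-kB. A match is a string of letters and not a measured binding site, and windows without one (Keap1 and Nqo1 had neither NRF2 nor AP-1 element) say nothing about these factors.

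With R848, all 10 members stood higher in both genotypes, though not all of them by 2-fold in wild-type cells. At least 2-fold higher were 8 of 10 members in wild-type cells, where 6.19% of all 18763 genes tested were, and 10 of 10 in knockout cells, where 6.84% of 19839 were. Among the 8755 genes whose mean signal lay above the 75th percentile, as that of every member did, the shares were 6.45% and 7.38%. The median log2 difference of the members was 1.30 in wild-type and 1.40 in knockout cells, against -0.03 and -0.06 over all genes tested. None of the 10 was lower in either genotype, where 4.79% and 4.42% of the bright genes fell, and 16 of 16 probes stood higher with R848 in both. A pair of measures of technical error apply. Over 158 bright probes with 10 spots each, the SD between spots was 0.065 on the log2 scale for the wild-type response and 0.051 for the knockout response. Over 2282 genes with several bright probes, the median SD between the probes of 1 gene was 0.17 and 0.15. Neither measure covers variation between cultures.

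**Figure D1:**
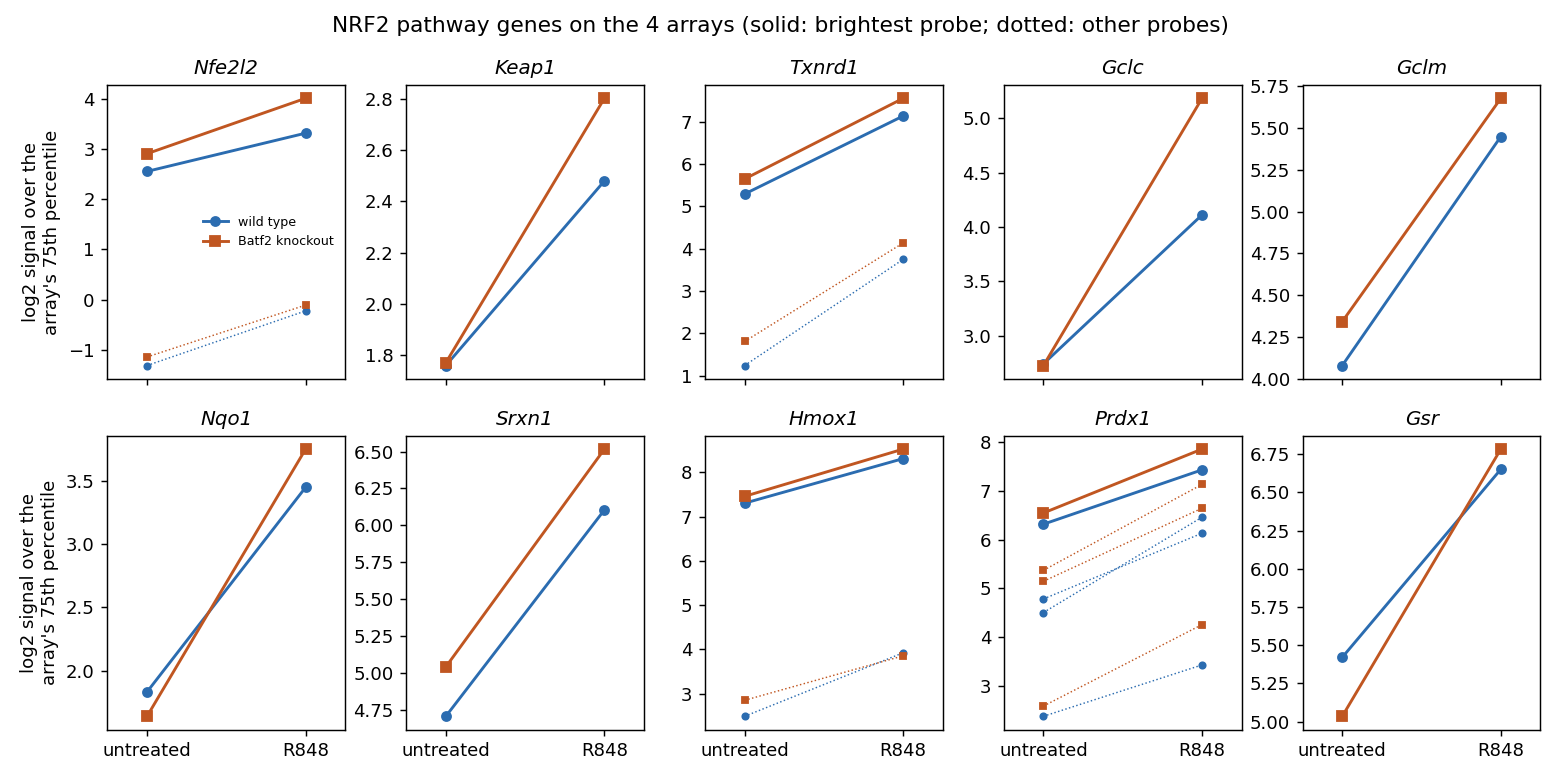
Signal of each of the 10 genes on the 4 arrays, as log2 over the array's 75th percentile (vertical axes differ in range between panels), with lines joining untreated and R848 arrays of a genotype. Solid lines are the brightest probe of a gene and dotted lines its other probes. All 32 lines, for 16 probes in 2 genotypes, go up with R848, and the lines of Gclc part with R848 from a common untreated level.

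In wild-type cells the regulators were the least changed members. Nfe2l2 (chromosome 2, band qC3), which encodes NRF2, had a relative signal, in units of the array's 75th percentile, of 5.87 untreated and 9.96 with R848 in wild-type cells, and of 7.50 and 16.1 in knockout cells. The wild-type difference of 1.70-fold stayed below the 2-fold line, and the knockout value rose 2.15-fold. A second probe of Nfe2l2 gave 2.13-fold and 2.05-fold, so the wild-type call depends on the probe. Keap1 (chromosome 9, band qA3), the inhibitor, stood at 3.38 and 5.58 in wild-type and at 3.41 and 6.98 in knockout cells. It was thus 1.65-fold higher with R848 in wild-type cells and rose 2.05-fold in the knockout, with equal starting levels. At their brightest probes Nfe2l2 and Keap1 were the only members below 2-fold in wild-type cells, and Hmox1, at 2.01-fold, was just above that line. Under quantile normalization Nfe2l2 and Keap1 both fell short of 2-fold in the knockout as well, as Keap1 did after normexp background correction.

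The genes of glutathione synthesis rose in both genotypes. Gclc (chromosome 9, band qE1) encodes the catalytic subunit of glutamate-cysteine ligase, the rate-limiting enzyme of glutathione synthesis. Its relative signal was 6.69 untreated and 17.3 with R848 in wild-type cells, and 6.62 and 36.3 in knockout cells. The untreated levels were close, while the knockout R848 array stood clearly above the other 3. This is a 2.58-fold rise in wild-type and a 5.49-fold rise in knockout cells. Gclm (chromosome 3, band qG1), the modifier subunit of the same enzyme, had values of 16.9 and 43.7 in wild-type and 20.3 and 51.2 in knockout cells. It rose 2.58-fold and 2.52-fold, so the subunits of this enzyme had equal responses in wild-type cells and unequal ones in the knockout. Gsr (chromosome 8, band qA4), glutathione reductase, which returns oxidised glutathione to its reduced form, went from 42.8 to 100.5 in wild-type cells and from 32.8 to 110.2 in knockout cells. Its rise was 2.35-fold and 3.36-fold, and the knockout array had the lower untreated and the higher R848 value.

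Txnrd1 had the highest wild-type response of the 10. It lies on chromosome 10 (band qC1) and encodes the cytosolic thioredoxin reductase, which keeps thioredoxin reduced with electrons from NADPH. Its brightest probe read 39.2 untreated and 140.7 with R848 in wild-type cells, and 50.2 and 187.8 in knockout cells, a rise of 3.59-fold and 3.74-fold. A second probe rose 5.69-fold and 5.02-fold. Both probes of Txnrd1 thus rose in both genotypes, with a log2 SD between them of 0.47 for the wild-type response and 0.30 for the knockout response.

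Prdx1 and Srxn1 work on the same cycle: peroxiredoxin 1 reduces hydrogen peroxide, and sulfiredoxin repairs its over-oxidised form. Prdx1 (chromosome 4, band qD1) had 4 probes, and the brightest read 79.7 and 172.5 in wild-type and 93.5 and 231.6 in knockout cells, a rise of 2.16-fold and 2.48-fold. Over the 4 probes the mean log2 difference was 1.37 ± 0.41 (SD over probes, not over cultures) in wild-type cells and 1.56 ± 0.20 in the knockout, and every probe was past 2-fold in both. Srxn1 (chromosome 2, band qG3) read 26.1 and 68.8 in wild-type and 33.0 and 91.6 in knockout cells. It rose 2.63-fold and 2.78-fold. Its 4 arrays had the same order as those of Prdx1 and Txnrd1: wild type untreated lowest and knockout with R848 highest. At their brightest probes Nfe2l2, Keap1, Gclm and Hmox1 had that order too.

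Nqo1 (chromosome 8, band qD3), a quinone reductase widely used as a readout of NRF2, had a relative signal of 3.56 and 10.9 in wild-type and of 3.12 and 13.4 in knockout cells. It rose 3.06-fold and 4.32-fold. Hmox1 (chromosome 8, band qC1), haem oxygenase 1, which breaks haem down to biliverdin, iron and carbon monoxide, read 158.0 and 317.6 in wild-type and 175.8 and 368.7 in knockout cells. Its rise of 2.01-fold and 2.10-fold was close to the 2-fold line, and in the authors' deposited table the wild-type log2 ratio of Hmox1 was 0.989. A second probe of Hmox1 rose 2.71-fold and 2.01-fold.

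**Figure D2:**
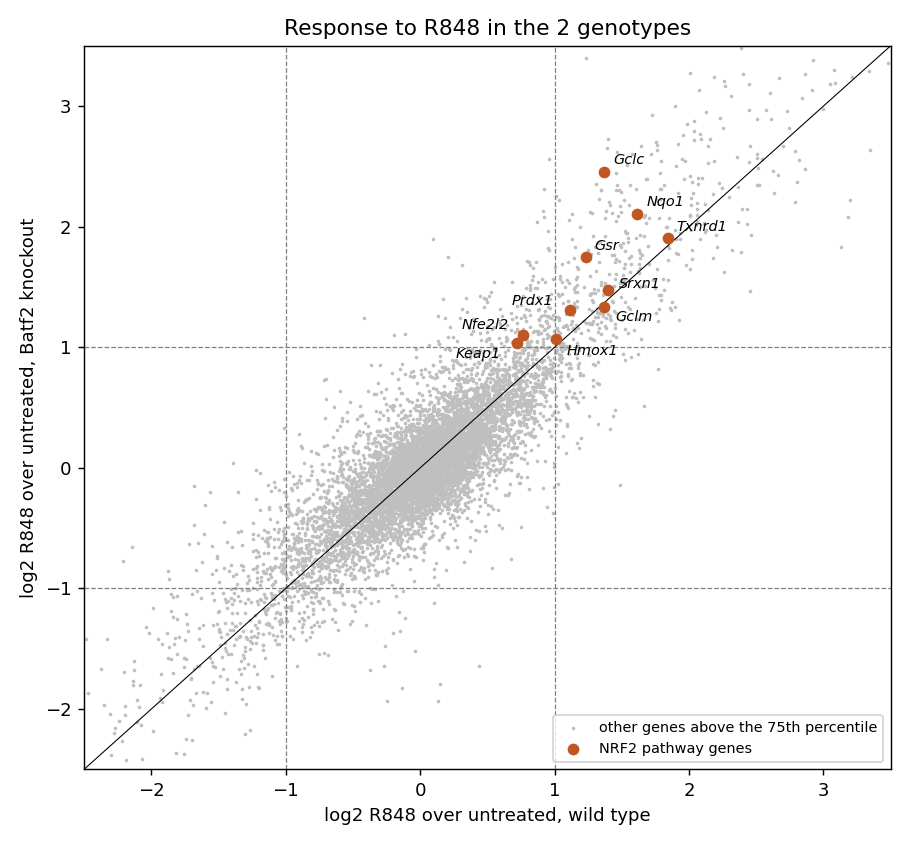
Log2 difference between R848 and untreated cells, wild type on the horizontal and Batf2 knockout on the vertical axis, for 8755 genes with a mean signal above the 75th percentile (94 lie outside the axes). Dashed lines mark 2-fold and the diagonal marks equal responses. The 10 NRF2 pathway genes lie between 0.72 and 1.84 in wild-type and between 1.03 and 2.46 in knockout cells, with Gclc the farthest above the diagonal.

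The wider pathway responded in part, as 92 further genes in 7 lists show. Of the 89 of these tested in wild-type cells 19 rose and 8 fell, with a median log2 difference of 0.07. In knockout cells 23 of 90 rose and 5 fell, with a median of 0.26. All genes had 6.19% higher and 7.01% lower in wild-type cells, and 6.84% higher and 6.57% lower in the knockout.

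Genes of glutathione supply and genes that use glutathione were both mixed. Slc7a11, the cystine carrier of the antiporter xCT, had a relative signal of 0.241 untreated and 5.15 with R848 in wild-type cells, and of 0.492 and 8.44 in knockout cells. That is a rise of 21.4-fold and 17.1-fold, and its 4 probes all rose. After normexp background correction the wild-type rise of Slc7a11 was 12.2-fold. Its partner chain Slc3a2 differed by -0.03 on the log2 scale in both genotypes. Gss, glutathione synthetase, which adds the last amino acid, rose 4.42-fold and 6.37-fold, and Gsta3, a glutathione transferase with close paralogs that a probe may not separate, rose 4.91-fold and 4.73-fold. The dimmest of the 3 probes of Gsta3 stood within 2-fold, at 0.35 and 0.83 on the log2 scale. In all, 7 of 25 genes of this list rose and 1 fell in wild-type cells, and 7 of 26 rose with none lower in the knockout. Not tested in either genotype were Gpx7 and Gsta4, which were not measured. The one that fell was Mgst2, a microsomal transferase, at 2.63-fold. The peroxidases Gpx1 and Gpx4, which use glutathione, stood at -0.58 and -0.76 in wild-type and at -0.41 and -0.13 in knockout cells.

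Within the thioredoxin and peroxiredoxin list, members of 1 family differed. Prdx5 and Prdx6 rose 2.25-fold and 2.16-fold in wild-type cells and 3.17-fold and 2.89-fold in the knockout. The wild-type value of Prdx6 was 1.96-fold after quantile normalization. Prdx2, Prdx3 and Prdx4 stayed within 2-fold, with wild-type log2 differences of 0.03, 0.07 and -0.58. Thioredoxin itself, Txn1, stood at 0.76 and 0.87, and the mitochondrial reductase Txnrd2 at -0.11 and 0.32, both within 2-fold, where the cytosolic Txnrd1 had passed it. Txnip, which binds and inhibits thioredoxin, fell 2.59-fold in wild-type cells (1.83-fold lower at its dimmer probe) and stood at -0.996, just short of 2-fold, in the knockout. The sestrin Sesn1 fell 2.48-fold and 2.99-fold. Sesn3 fell 2.01-fold in wild-type cells (1.79-fold lower after normexp and 1.81-fold after median centring) and stood at -0.55 in the knockout. Of 13 genes 2 rose in each genotype, and 3 fell in wild-type and 1 in knockout cells.

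NADPH pays for both systems, and of 7 genes that supply it 1 rose in each genotype. This was Me1, cytosolic malic enzyme, which went from 0.891 to 3.58 in wild-type and from 0.847 to 4.53 in knockout cells, a rise of 4.01-fold and 5.35-fold. Of the pentose phosphate enzymes, G6pdx stood at 0.04 and 0.16 on the log2 scale and Pgd at 0.83 and 0.94. Idh1, which makes NADPH in the cytosol, fell 2.36-fold and 2.63-fold, but its dimmer probe was 1.66-fold and 1.89-fold lower.

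Among 12 genes of quinone and aldehyde detoxification and export, 3 rose in wild-type and 4 in knockout cells, and 1 fell in each. The aldo-keto reductase Akr1b8 rose 2.35-fold and 2.30-fold and the esterase Esd 2.25-fold and 2.23-fold. The exporter Abcc4 rose 4.55-fold and 9.45-fold, but its 1 probe falls within a bright patch marked on the array of R848-treated wild-type cells, and it has no other reading. Nqo2, the paralog of Nqo1, fell 2.50-fold and 2.01-fold, the direction opposite to that of Nqo1. The knockout value was 1.84-fold lower after normexp and 1.82-fold after median centring, and 3.04-fold lower at the dimmer probe of Nqo2. In the list of 9 haem and iron genes Alas1, the first enzyme of haem synthesis, rose 3.05-fold and 3.76-fold, and Blvrb, which reduces biliverdin downstream of Hmox1, rose 2.67-fold and 2.34-fold. The haem transporter Slc48a1 rose 2.20-fold in the knockout (1.84-fold higher at its dimmest probe) and stood at 0.86 on the log2 scale in wild-type cells. Slc40a1, the iron exporter ferroportin, fell 2.41-fold and 2.39-fold, and in the knockout its dimmest probe fell 5.74-fold. Counts for this list were 2 higher and 1 lower in wild-type, and 3 higher and 1 lower in knockout cells.

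Genes that make or remove superoxide were held in a separate list of 9, of which 2 rose and none fell in either genotype. Sod2, the mitochondrial superoxide dismutase, rose 20.0-fold and 21.2-fold. Cybb, the catalytic chain of the phagocyte NADPH oxidase, which produces superoxide, rose 3.09-fold and 3.23-fold. Sod1 and catalase (Cat) stood at 0.07 and 0.46 in wild-type and at -0.10 and 0.56 in knockout cells.

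The factors that work with or against NRF2 were counted among 14 regulators, of which 2 rose and 1 fell in wild-type and 4 rose and 1 fell in knockout cells. Maff, a small MAF protein, rose 7.05-fold and 5.96-fold from 0.0798 and 0.101. After normexp the rise of Maff was 2.49-fold and 2.42-fold. Mafg, another small MAF, read 40.3 and 68.5 in wild-type and 34.8 and 77.2 in knockout cells, which is 1.70-fold higher in wild-type cells and a rise of 2.22-fold in the knockout. The third small MAF, Mafk, stood at 0.02 and 0.55 on the log2 scale. Sqstm1, the autophagy receptor p62 that can bind KEAP1, rose 2.81-fold and 2.66-fold at its brightest probe, and all 3 of its probes rose. Bach1, the competitor at antioxidant response elements, stood at -0.27 in wild-type and at 0.22 in knockout cells, within 2-fold in both. Palb2, which binds KEAP1, fell 2.39-fold in wild-type cells (1.37-fold lower after normexp, 1.77-fold as the mean of its probes) and stood at -0.81 in the knockout. The BACH1 relative Bach2 fell 2.30-fold in the knockout (1.79-fold lower after normexp) and stood at -0.82 in wild-type cells.

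**Figure D3:**
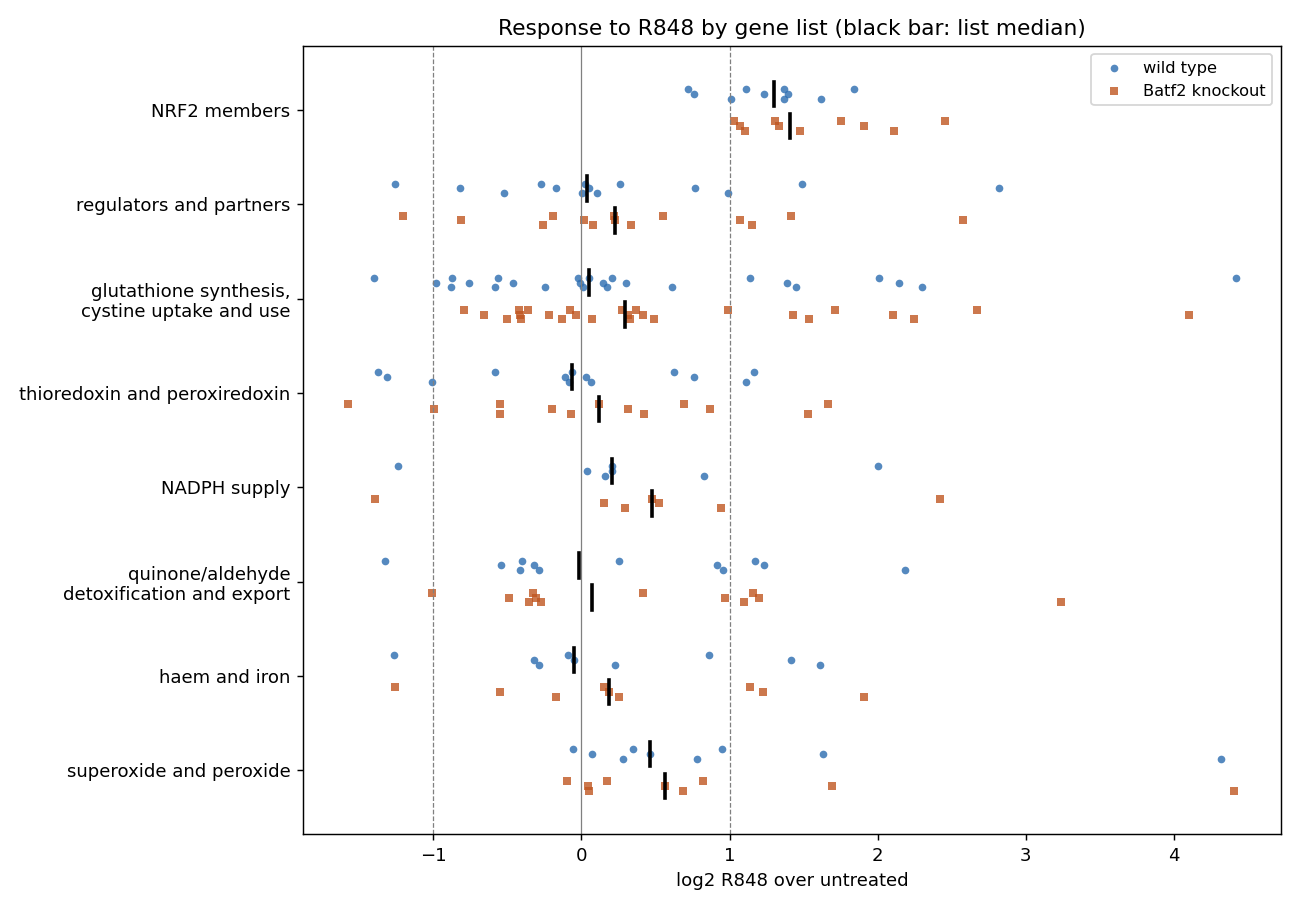
Log2 difference between R848 and untreated cells for each gene of the NRF2 members and of 7 further lists, with wild-type cells as circles and Batf2 knockout cells as squares. Black bars are list medians and dashed lines mark 2-fold. The median of the 10 members is 1.30 in wild-type and 1.40 in knockout cells, and the medians of the other lists lie between -0.06 and 0.56.

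Between the genotypes before treatment, no member was 2-fold apart, where 2.80% of all 20300 genes tested passed 2-fold upwards in the knockout and 3.18% downwards. Among the bright genes these shares were 0.491% and 1.63%. The log2 differences of the members ran from -0.39 for Gsr to 0.36 for Txnrd1, with a median of 0.19 against 0.06 over all genes. Of the 10, 7 stood above 0, as did 11537 of all 20300 genes and 4879 of the 8755 bright genes. Gclc and Keap1, at -0.02 and 0.01, were within 2 SD of the spread between spots (SD 0.054), and their sign changed with the scaling.

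With R848, 1 of the 10 members was at least 2-fold higher in the knockout, and none was lower. The one was Gclc at 2.10-fold, or 1.07 on the log2 scale. Of all 18768 genes tested 2.34% passed 2-fold upwards and 2.45% downwards, and of the 8755 bright genes 0.742% and 1.02%. Gclc ranked 42 from the top among those bright genes. All 10 members stood above 0 at their brightest probe, as did 4658 of the 8755 bright genes, and the members ran from 0.13 for Gsr to 1.07 with a median of 0.37 against 0.04 over all genes. The second probe of Hmox1 stood at -0.07, and the second probe of Nfe2l2 at 0.12 in place of 0.69. The spread between spots had an SD of 0.060, and the median SD between probes of a gene was 0.13, so the differences of Gsr, Hmox1 and Gclm (0.13, 0.21 and 0.23) were under 2 of the latter.

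The response of the knockout minus that of the wild type was at least 2-fold for Gclc alone among the members, at 1.09 on the log2 scale, where 3.14% of all 18457 genes tested passed 2-fold upwards and 2.50% downwards. Gsr followed at 0.52, Nqo1 at 0.49, Nfe2l2 at 0.34 and Keap1 at 0.31, and Txnrd1, Srxn1, Hmox1 and Gclm lay between -0.03 and 0.08, with a sign that changed with the processing for Gclm, Txnrd1 and Hmox1. The median was 0.25 against -0.02 over all genes. Among the bright genes 70 was the rank of Gclc from the top, of which 1.11% passed 2-fold upwards and 0.468% downwards. Gclc and Gsr were each read by 1 probe in 1 spot, so neither has a second reading on any array. For members with several probes the difference between responses was not stable: it ran from -0.18 to 0.06 over the 2 probes of Txnrd1, from -0.06 to 0.34 over those of Nfe2l2, from -0.43 to 0.06 over those of Hmox1 and from -0.19 to 0.62 over the 4 of Prdx1.

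**Figure D4:**
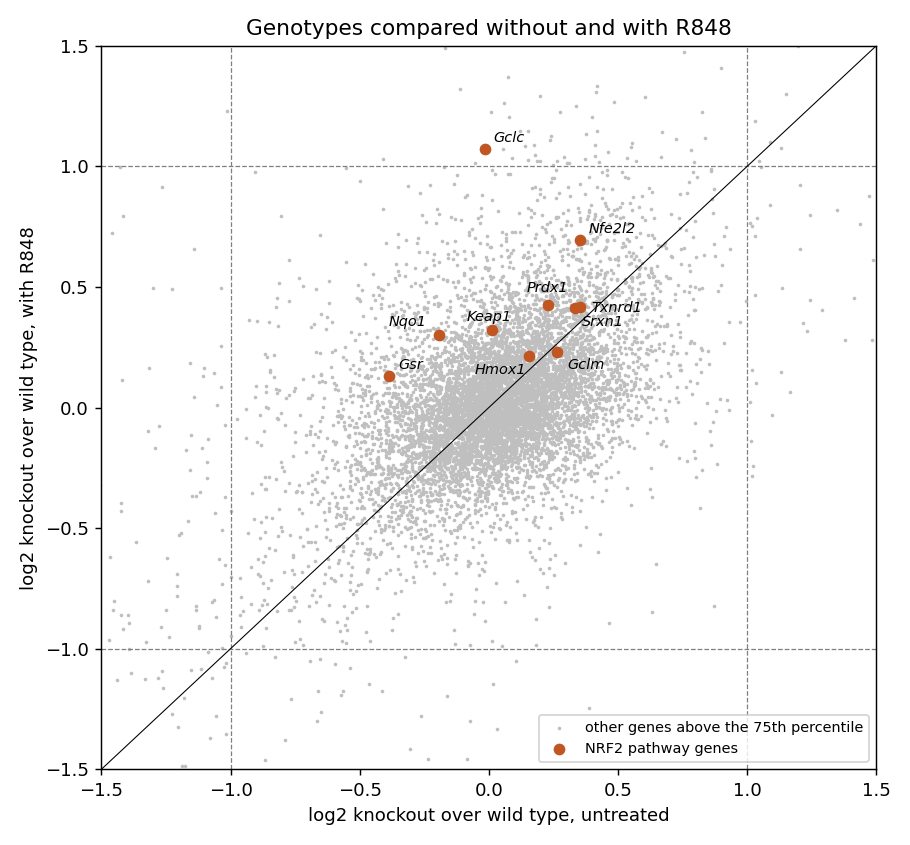
Log2 difference between Batf2 knockout and wild-type cells, untreated on the horizontal and with R848 on the vertical axis, for 8755 genes with a mean signal above the 75th percentile (65 lie outside the axes). Dashed lines mark 2-fold and the diagonal marks equal differences. Gclc stands at -0.02 untreated and 1.07 with R848, and the other 9 members are within 2-fold on both axes.

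The members' common pattern over the 4 arrays, centred on the mean of each gene, was -0.76 and 0.47 on the wild-type arrays and -0.55 and 0.82 on the knockout arrays (log2, median of the 10). Prdx1 and Gclm were nearest to it, with root mean square distances of 0.051 and 0.054, and Gclc was farthest at 0.41. Outside the lists, and of 17142 genes well above background on all arrays, the 5 nearest were Kdm4a, 2210406H18Rik, Dpysl2, Septin11 and Lrrc8c, at distances of 0.037 to 0.061. With 4 points many genes share such a pattern, and 327 genes lay as near as the median member did.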

How the data were processed

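Each of the 4 Agilent arrays carried 1 sample in 1 colour (Cy3). Per the file headers, Feature Extraction 11.5.1.1 produced the intensity values, from which it had taken background and a spatial trend, with no scaling between arrays, and the grid was annotated to mm9. The authors also deposited a table of intensity in which each array was the processed signal times 1 factor (within 1% for 100.0% of 39374 spots), with log2 ratios of 1 array over another. The sources used here do not say how those factors were set.

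For the main values, outlier spots (70 to 115 per array) were left out, log2 was taken, the spots of a probe were averaged, and the 75th percentile of the array's probes was subtracted. A probe was measured on an array where at least 0.5 of its spots were marked well above background. A gene was taken at its brightest measured probe, and a difference was called at 2-fold. A dim side outside the members was raised to the array's lowest measured value where it lay below that value, and was otherwise kept as read. Names came from the authors' table and the GRCm38.p6 gene table (40456 of 56605 probes, 25106 genes). The steps were tested on simulated data. Alternatives were normexp background correction (limma 3.58.1, offset 50, on the median spot signal, since the planned mean signal is not a column of the files used here), median centring, quantile normalization, the authors' table, 2 filters on dim probes, the mean over probes, and leaving out marked areas. An area was marked where at least 25% of the spots in a square of 9 by 9 stood over 1 log2 unit above the spot's median over the arrays. The dimmest probe of a gene was added after seeing the data.

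The members and lists were chosen with earlier results of these data known. All 10 members are named. In each further list up to 3 genes per direction past 2-fold are named in each comparison, those with the largest differences, together with Slc7a11, Sqstm1, Bach1, Maff, Mafg, Mafk, Txn1 and Sod2. Other genes given with values within 2-fold were picked from the lists after their values were seen. The 5 genes nearest to the members' median profile are named as well.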

Additional observations from a re-analysis of the deposited data

Results flagged for a closer look

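Of the 10 members and the 8 further genes named in every case, the knockout stood for 5 on opposite sides of the wild type without and with R848, each on 1 array per group, and the difference between the differences was not tested. Gclc went from -0.02 to 1.07 on the log2 scale (a difference of 1.09), Gsr from -0.39 to 0.13 (0.52) and Nqo1 from -0.19 to 0.30 (0.49). Among the small MAF genes Mafk went from -0.02 to 0.51 (0.53) and Mafg from -0.21 to 0.17 (0.38). The untreated values of Gclc and Mafk were under 2 SD of the spread between spots (0.11), so their sign is not settled. Over the members and all lists 30 of 99 genes crossed in this way, so crossing was not particular to the 5. The widest crossing was that of Gpx2, from 0.88 to -0.23. Bach1 moved in opposite directions with R848, at -0.27 in wild-type and 0.22 in knockout cells (a difference of 0.49), which was not tested either.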

How the results depend on the processing

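The counts of members past 2-fold stayed within 1.5 times of the main count under 9 other ways of processing. In wild-type cells 7 to 9 members rose with R848 and in knockout cells 8 to 10, none fell, and between the genotypes the count was 0 untreated and 1 (Gclc) with R848 in every setting. Hmox1 in wild-type cells fell below 2-fold under quantile normalization (0.99 at the lowest over settings) and in the authors' table. Keap1 in the knockout ranged from 0.93 to 1.18 and Nfe2l2 in wild-type cells from 0.64 to 1.09. Gclc ranged from 1.03 to 1.10 between genotypes with R848. Median centring moved the median of all genes from -0.03 to 0.13 in the wild-type response and from -0.06 to 0.09 in the knockout response, and that of the members to 1.45 and 1.55. It also moved the share of higher genes among those called from 46.9% to 61.0% and from 51.0% to 63.1%. Of all genes normexp called 702 higher and 575 lower in place of 1162 and 1316 in wild-type cells, and 810 and 547 in place of 1357 and 1303 in the knockout. Without a filter on dim probes 2261 and 2277 were lower. Between genotypes with R848, the authors' table moved the share higher from 48.9% to 60.2%. No paired analysis was possible because each group has 1 array, and for the same reason no replicate could be left out. Signal over background does not limit the members, which were measured on all arrays.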

Other observations

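Between the genotypes, 2 of 89 genes of the wider pathway (2.25%) were at least 2-fold higher and 1 (1.12%) lower in untreated knockout cells, against 2.80% and 3.18% of all genes. With R848 these were 3 of 90 (3.33%) and 1 (1.11%), against 2.34% and 2.45%, so both are near the share of all genes. Slc7a11 was 2.04-fold higher in untreated knockout cells at its brightest probe, and its 4 probes ran from 0.38 to 1.75 on the log2 scale. After normexp it was 1.57-fold and after median centring 1.99-fold higher. With R848 it stood at 0.71. Gsta3 was 2.19-fold higher untreated and 2.11-fold higher with R848 in the knockout, but 1.70-fold and 1.81-fold as the mean of its 3 probes, and its dimmest probe stood at -0.17 untreated. Mgst2 was 3.72-fold lower untreated and 2.23-fold lower with R848 (1.84-fold after normexp), and Gstm2, a transferase with close paralogs, was 2.56-fold higher with R848 from 0.643 in wild-type cells. Ephx1, which hydrolyses epoxides, was 2.06-fold higher with R848, and 1.76-fold after normexp. Gpx2, a glutathione peroxidase, stood at 0.61 in the wild-type and at -0.50 in the knockout response, a difference of -1.11. For Abcc4, with the reading in a bright patch, the responses differed by 1.06, or 0.90 after normexp. No NADPH supply, thioredoxin, haem or superoxide gene of the lists was 2-fold apart between genotypes.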
